A study of Mus musculus with 8 samples.

Results

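The islet endothelium and its growth factor were followed across the islet libraries through 10 genes, 9 genes of the islet endothelium and the gene of the growth factor that maintains it. They were *Pecam1*, *Cdh5*, *Kdr*, *Flt1*, *Tek*, *Tie1*, *Plvap*, *Esam*, *Emcn* and *Vegfa*. The genes were taken by name from the symbol column of the deposited matrix, and all 10 of 10 were present among its 24123 genes. All 10 passed the filter on low values, which kept 12594 genes with at least 1 RPKM (reads per kilobase of gene length, scaled to the read total of the library) in at least 2 of the 8 libraries.

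The libraries were made from polyadenylated RNA of whole islets from adult male littermate mice. Control islets were Irs2+/+;Cdk4-WT/WT (libraries 1, 3 and 4), Diabetic islets were Irs2-/-;Cdk4-WT/WT (libraries 1, 2 and 3) and Rescue islets were Irs2-/-;Cdk4-R24C/R24C (libraries 1 and 2). IRS2 is an adaptor of the insulin and IGF1 receptors, and the R24C form of CDK4 resists the INK-family cell cycle inhibitors. Both alleles were carried by the whole body, so endothelial and blood cells had them as well as β cells, and the mixed-background line was not extensively backcrossed. Islets of Irs2+/+;Cdk4-R24C/R24C mice were not analysed here, so an effect of the R24C allele by itself cannot be told apart from its effect on an Irs2-/- background. The study reported raised blood glucose in males of the Diabetic genotype. Males of the Rescue genotype had glucose at control levels, with high plasma insulin and more fat mass. These metabolic states go with genotype and cannot be told apart from it here. Each value averages over all cells of an islet, and fewer cells of a type and less RNA per cell cannot be told apart. No source states that each library is a different animal, so the p-values measure the spread between libraries, which may be technical.

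Facts of the whole series that bear on these genes were few. The libraries held 10289662 to 14315976 reads in genes. The 9 endothelial genes were covered by 170 to 3790 reads each per library, and *Vegfa* by 1419 to 8212 reads. *Irs2* at the gene level was 5.14 to 11.0 RPKM in Control, 22.0 to 36.3 in Diabetic and 7.15 to 16.3 in Rescue. A gene-level value does not tell whether the reads cover the deleted part, so it does not check the genotype, and Control, Diabetic and Rescue mean the libraries labelled so. A set of 5 libraries (Control 1 and 3, Diabetic 1, Rescue 1 and 2) had high and 3 libraries (Control 4, Diabetic 2 and 3) low levels of 12 RNAs that are retained in the nucleus, such as *Malat1*. The mean of these RNAs on a log2 scale, centred on all libraries, was 0.65 to 1.22 in the first 5 and -1.57 to -1.43 in the other 3. Lymphocyte genes were high in both Rescue libraries and uneven elsewhere, with values given below.

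Pancreatic islets are among the most richly vascularized tissues of the body. β cells secrete VEGF-A, which acts on the receptor tyrosine kinases VEGFR2 (*Kdr*) and VEGFR1 (*Flt1*) of the capillary endothelium, and islet capillaries depend on it for their number and for their fenestrae, the small pores closed by diaphragms of PLVAP. The angiopoietin receptor TIE2 (*Tek*) and its partner TIE1 hold the endothelium in a quiescent state. VE-cadherin (*Cdh5*), PECAM1 and ESAM are adhesion molecules of endothelial junctions, and endomucin (*Emcn*) is a sialomucin of capillary and venous endothelium.

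On GRCm38 with the GENCODE M21 annotation, *Vegfa* lies on chromosome 17 (46016993 to 46032369, minus strand). *Kdr* (75932827 to 75978458) and *Flt1* (147561604 to 147726011) both lie on the minus strand of chromosome 5, and *Tek* (94739289 to 94874976, plus strand) and *Tie1* (118471191 to 118490061, minus strand) both on chromosome 4. *Cdh5* (104101625 to 104144511, plus strand) and *Plvap* (71497765 to 71511752, minus strand) lie on chromosome 8. *Pecam1* lies on chromosome 11 (106654217 to 106750628, minus strand), *Esam* on chromosome 9 (37528078 to 37538319, plus strand) and *Emcn* on chromosome 3 (137341067 to 137432185, plus strand).

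The 250 bases before the start of the ligand gene and of its 2 receptor genes are shown because *Vegfa* is set beside *Kdr* and *Flt1* below. RefSeq promoters (GRCm38.p6) were matched for 6 of the 10 genes, *Vegfa*, *Kdr*, *Flt1*, *Tek*, *Tie1* and *Emcn*. Capitals mark the letters AGGAAG, the core of many ETS factor sites, and GGGCGG, the GC box, on either strand. These motifs do not overlap each other.
Vegfa, chr17:46032378-46032627, minus strand: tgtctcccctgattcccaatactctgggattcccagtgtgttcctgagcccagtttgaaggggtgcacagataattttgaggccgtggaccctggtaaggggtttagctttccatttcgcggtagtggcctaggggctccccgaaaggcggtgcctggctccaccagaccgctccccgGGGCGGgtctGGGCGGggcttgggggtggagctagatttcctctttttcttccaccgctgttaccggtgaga
Kdr, chr5:75978456-75978705, minus strand: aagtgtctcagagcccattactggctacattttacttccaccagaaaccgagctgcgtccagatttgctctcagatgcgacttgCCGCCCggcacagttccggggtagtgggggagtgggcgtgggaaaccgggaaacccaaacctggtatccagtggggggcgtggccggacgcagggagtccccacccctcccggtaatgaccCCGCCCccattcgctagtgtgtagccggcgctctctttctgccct
Flt1, chr5:147726012-147726261, minus strand: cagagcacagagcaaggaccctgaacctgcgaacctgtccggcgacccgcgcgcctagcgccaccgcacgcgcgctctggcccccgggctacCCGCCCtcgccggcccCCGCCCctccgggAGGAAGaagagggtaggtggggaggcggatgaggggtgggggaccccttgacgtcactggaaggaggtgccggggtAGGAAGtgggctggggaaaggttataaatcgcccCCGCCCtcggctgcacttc

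AGGAAG stood 2 times in the *Flt1* window, 0 times in that of *Kdr* and 0 times in that of *Vegfa*. GGGCGG stood 3 times at *Flt1*, 2 times at *Kdr* and 2 times at *Vegfa*. A second *Vegfa* window listed by RefSeq, which starts inside the gene, held AGGAAG 0 times and GGGCGG 1 time and is not shown. Of 32851 mouse promoter windows of the same length, 29.5% held AGGAAG and 32.7% held GGGCGG at least once. Among the other 3 matched genes, *Emcn* held AGGAAG 2 times, *Tie1* 1 time and *Tek* 0 times, and none of them held GGGCGG. These matches describe the letters of the windows and not sites in use.

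The first question was whether the ligand differed between the genotypes. *Vegfa* was 127, 118 and 72.8 RPKM in Control libraries 1, 3 and 4, 65.8, 30.8 and 34.0 RPKM in Diabetic libraries 1 to 3, and 48.1 and 79.4 RPKM in Rescue libraries 1 and 2. Every Diabetic value lay below every Control value, whereas 1 of the 2 Rescue libraries lay above the lowest Control library and the Rescue values spanned the highest Diabetic one. The group means were 106 ± 29.0 RPKM (SD, n = 3) in Control, 43.5 ± 19.3 (SD, n = 3) in Diabetic and 63.7 ± 22.2 (SD, n = 2) in Rescue. The Diabetic mean was 0.411 times the Control mean, and the difference on the log2(RPKM + 1) scale was -1.31 (SE 0.34, 95% interval -2.07 to -0.54, adjusted p = 0.0682 in limma over 12594 genes), which did not pass 0.05. Lower values without overlap between Diabetic and Control were found for 21.5% of all genes tested, and lower values that passed the test for 2.44%. Rescue minus Diabetic was 0.58 (SE 0.37, interval -0.28 to 1.44, adjusted p = 0.263) and Rescue minus Control was -0.73 (SE 0.37, interval -1.58 to 0.13, adjusted p = 0.202), so neither difference passed the test and the Rescue level could not be placed with Control or with Diabetic.

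*Vegfa* was lower where the nuclear-retained RNAs were low within Control and within Diabetic, but not within Rescue, where Rescue 1 had the higher level of these RNAs (1.22 against 0.69) and the lower *Vegfa*. Among the 5 libraries in which these RNAs were high, *Vegfa* was 122 RPKM on average in the 2 Control libraries, 65.8 in the 1 Diabetic library and 63.7 in the 2 Rescue libraries. The Diabetic library was thus at 0.537 times and the Rescue libraries at 0.521 times the Control mean, and Rescue was at 0.969 times the Diabetic value. Among the other 3 libraries, the Diabetic mean of 32.4 RPKM was 0.445 times the 1 Control value of 72.8. Diabetic was thus below Control within either set, at 0.537 and 0.445 times beside 0.411 times over all libraries. Rescue and Diabetic met only in the first set, where the 1 Diabetic library (65.8 RPKM) lay between the Rescue libraries (48.1 and 79.4 RPKM). With 1 Diabetic library there, the sets cannot show whether Rescue differed from Diabetic. With the mean of these RNAs as a covariate, Diabetic minus Control was -1.01 (adjusted p = 0.0562 in limma), Rescue minus Control was -1.01 and passed the test (adjusted p = 0.0283), and Rescue minus Diabetic turned to -0.0015 (adjusted p = 0.998). Without Diabetic 1, Diabetic minus Control was -1.64 and passed the test (adjusted p = 0.0444).

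**Figure D1:**
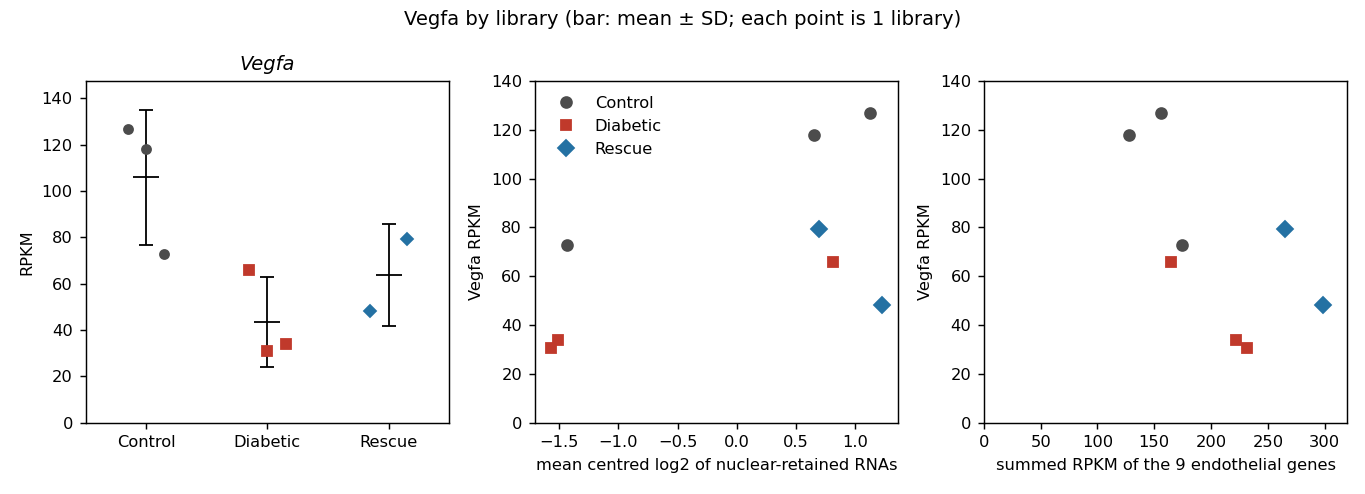
*Vegfa* RPKM by genotype (left, points are libraries and bars the mean ± SD), against the mean centred log2 level of 12 nuclear-retained RNAs (middle) and against the summed RPKM of the 9 endothelial genes (right), each point 1 library. The Diabetic libraries sit between 30.8 and 65.8 RPKM, below the Control libraries at 72.8 to 127, and within either set of libraries in the middle panel the Control libraries are the highest.

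The receptors of VEGF-A did not follow the ligand. *Kdr*, the main signalling receptor of the endothelium, was 22.1, 18.6 and 26.8 RPKM in Control, 19.6, 23.8 and 27.6 in Diabetic and 26.3 and 30.6 in Rescue, and the 3 groups overlapped. Its means were 22.5 ± 4.09 (SD, n = 3), 23.7 ± 4.02 (SD, n = 3) and 28.5 ± 3.03 RPKM (SD, n = 2). The differences of *Kdr* were 0.07 for Diabetic minus Control (interval -0.33 to 0.47, adjusted p = 0.818), 0.27 for Rescue minus Diabetic (-0.18 to 0.71, adjusted p = 0.323) and 0.34 for Rescue minus Control (-0.11 to 0.79, adjusted p = 0.254), all on the log2(RPKM + 1) scale in limma.

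*Flt1*, a receptor of higher affinity that largely traps the ligand, was 15.9, 12.6 and 15.5 RPKM in Control, 12.3, 17.5 and 21.3 in Diabetic and 19.2 and 17.9 in Rescue. The Diabetic libraries spanned the values of the other genotypes, and both Rescue libraries lay above the 3 Control libraries. Its differences were 0.18 (interval -0.26 to 0.62, adjusted p = 0.578), 0.15 (-0.35 to 0.64, adjusted p = 0.629) and 0.33 (-0.17 to 0.82, adjusted p = 0.318) in the same order, none of which passed the test in limma. Within a library the 2 receptors kept a like proportion, with *Kdr* at 1.53 ± 0.18 times *Flt1* in Control (SD, n = 3), 1.42 ± 0.15 in Diabetic (SD, n = 3) and 1.54 ± 0.24 in Rescue (SD, n = 2).

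Set against its receptor, *Vegfa* was 5.75, 6.33 and 2.72 times *Kdr* in the Control libraries, 3.36, 1.29 and 1.23 times in the Diabetic libraries and 1.83 and 2.59 times in the Rescue libraries. The lowest Control ratio lay below the highest Diabetic ratio, and both Rescue ratios lay below all 3 Control ratios. These ratios are levels per gene length from the same library and were not tested.

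The angiopoietin receptors were, by group mean, the least abundant members. *Tek* was 3.85, 2.83 and 4.55 RPKM in Control, 4.66, 7.44 and 6.58 in Diabetic and 4.61 and 4.79 in Rescue. The Diabetic libraries were all above the Control libraries, and the Rescue libraries lay just above the highest Control library, on either side of the lowest Diabetic one. *Tek* was the 1 member of the 9 with a lower mean in Rescue (4.70 ± 0.127 RPKM, SD, n = 2) than in Diabetic (6.23 ± 1.43, SD, n = 3), against 3.74 ± 0.865 in Control (SD, n = 3). In limma the differences were 0.60 from Control to Diabetic (SE 0.20, adjusted p = 0.122) and -0.32 from Diabetic to Rescue (SE 0.22, adjusted p = 0.290), and neither passed the test.

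*Tie1*, an orphan partner of TIE2, was 7.02, 5.18 and 7.07 RPKM in Control, 6.35, 9.13 and 8.86 in Diabetic and 10.3 and 9.22 in Rescue. Both Rescue libraries were above all others, but Rescue minus Control was 0.54 (SE 0.20, adjusted p = 0.0809) and Rescue minus Diabetic 0.25 (adjusted p = 0.350) in limma. The proportion of the 2 receptors was therefore uneven. *Tek* was 0.55, 0.55 and 0.64 times *Tie1* in Control, 0.73, 0.81 and 0.74 times in Diabetic and 0.45 and 0.52 times in Rescue, so that the 3 genotypes did not overlap in this ratio, which was chosen with the values known and was not tested.

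The differences of members that passed the test were those of the 3 junction genes and of *Plvap*. *Pecam1*, which blood cells and platelets express as well as endothelium, was 9.60, 7.81 and 10.3 RPKM in Control, 13.4, 19.5 and 12.7 in Diabetic and 28.3 and 29.0 in Rescue. The 3 groups were separate, in the order Control, Diabetic, Rescue. *Pecam1* rose by 0.89 from Diabetic to Rescue (SE 0.20, adjusted p = 0.0123 in limma) and was 1.54 higher in Rescue than in Control (SE 0.20, adjusted p = 0.000933), a mean of 28.6 ± 0.489 RPKM (SD, n = 2) against 9.23 ± 1.27 (SD, n = 3). Diabetic minus Control was 0.65 (SE 0.18, adjusted p = 0.0817) and did not pass. The call of *Pecam1* between Rescue and Diabetic was lost with median-of-ratios scaling and without Rescue 1 (0.91 in the latter).

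*Cdh5*, the cadherin of endothelial junctions, was 8.10, 6.90 and 9.44 RPKM in Control, 12.3, 18.0 and 13.5 in Diabetic and 20.6 and 18.4 in Rescue, again with separate groups in the same order. *Cdh5* rose by 1.17 from Control to Rescue (SE 0.19, adjusted p = 0.00289 in limma). The difference of Diabetic minus Control was 0.76 (SE 0.17, adjusted p = 0.0504), which passed 0.05 under 4 other settings given in the closing section, and Rescue exceeded Diabetic by 0.41 without passing (SE 0.19, adjusted p = 0.139).

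*Esam* kept to a different pattern. It was 8.80, 7.71 and 7.20 RPKM in Control, 8.41, 8.69 and 9.71 in Diabetic and 15.7 and 15.3 in Rescue, so Control and Diabetic overlapped and both Rescue libraries stood above the other 6. *Esam* was 0.74 higher in Rescue than in Diabetic (SE 0.14, adjusted p = 0.00667 in limma) and 0.90 higher than in Control (SE 0.14, adjusted p = 0.00222), with 0.16 between Diabetic and Control (interval -0.13 to 0.45, adjusted p = 0.451). The call against Diabetic was lost with median-of-ratios scaling, and the call against Control with a replicate block.

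*Plvap*, the protein of the fenestral diaphragm, was the most abundant of the 9 in every library. It was 70.0, 57.2 and 82.0 RPKM in Control, 79.8, 118 and 110 in Diabetic and 158 and 129 in Rescue. Both Rescue libraries exceeded all others, while Diabetic 1 lay below Control 4. *Plvap* rose by 1.04 from Control to Rescue (SE 0.22, adjusted p = 0.0088 in limma), and the differences of 0.54 for Diabetic minus Control (adjusted p = 0.143) and 0.49 for Rescue minus Diabetic (adjusted p = 0.115) did not pass. The call was lost without Rescue 1 (0.89), with median-of-ratios scaling (0.91, adjusted p = 0.0506) and with a replicate block.

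*Emcn* was 10.6, 8.85 and 11.8 RPKM in Control, 8.34, 9.81 and 11.8 in Diabetic and 15.6 and 11.1 in Rescue. The 3 genotypes overlapped, and no difference passed the test in limma (-0.06, interval -0.48 to 0.36, for Diabetic minus Control; 0.38, -0.09 to 0.85, for Rescue minus Diabetic; 0.32, -0.15 to 0.79, for Rescue minus Control). The sign of the first of these turned under other scalings.

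**Figure D2:**
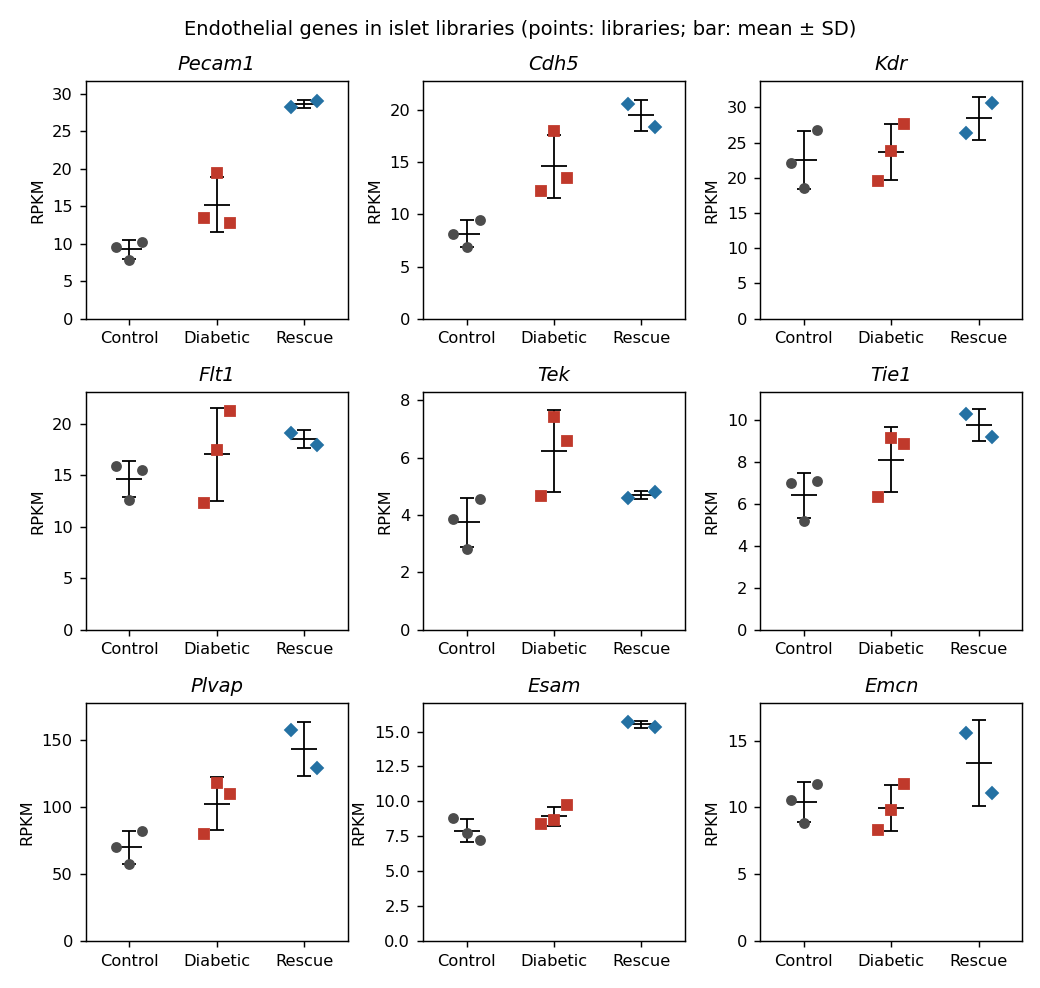
RPKM (linear axes from 0) of the 9 endothelial genes in the 3 Control, 3 Diabetic and 2 Rescue libraries, with points for libraries and bars for the mean ± SD. *Pecam1* and *Cdh5* step up over the 3 genotypes, *Esam* is high in Rescue (15.3 and 15.7 RPKM) and overlaps between Control and Diabetic, *Tek* is highest in Diabetic, and *Kdr* overlaps in all groups.

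Counted together, 0 of the 9 endothelial genes passed the test between Diabetic and Control, where 1.53% of all genes tested were higher and 2.44% lower by limma (2939 of 12594 had an unadjusted p under 0.05). At an unadjusted p under 0.05 they were 4 of 9 (*Pecam1*, *Cdh5*, *Tek* and *Plvap*, all higher in Diabetic), and with voom on the recovered reads 0 passed after adjustment. From Diabetic to Rescue 2 of 9 rose (*Pecam1* and *Esam*) and 0 fell, beside 24.0% of all genes higher and 5.80% lower. From Control to Rescue 4 of 9 rose (*Pecam1*, *Cdh5*, *Plvap* and *Esam*) and 0 fell, beside 18.0% higher and 5.48% lower. The share of members that rose from Diabetic to Rescue was thus near that of all genes.

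The groups did not overlap, with higher values in the first-named genotype, for 3 of the 9 in Diabetic against Control (10.2% of all genes), 5 of 9 in Rescue against Diabetic (42.0%) and 7 of 9 in Rescue against Control (33.1%). None of the 9 was lower without overlap, beside 21.5%, 12.9% and 18.9% of all genes in the same order. The median difference of the 9 was 0.29 for Diabetic minus Control, 0.38 for Rescue minus Diabetic and 0.54 for Rescue minus Control, beside -0.12, 0.24 and 0.08 for all genes tested. Relative to that shift of all genes, the members' median between Rescue and Diabetic was small. With median-of-ratios scaling 0 members were called between Rescue and Diabetic and the members' median was 0.13, beside 0.02 for all genes.

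**Figure D3:**
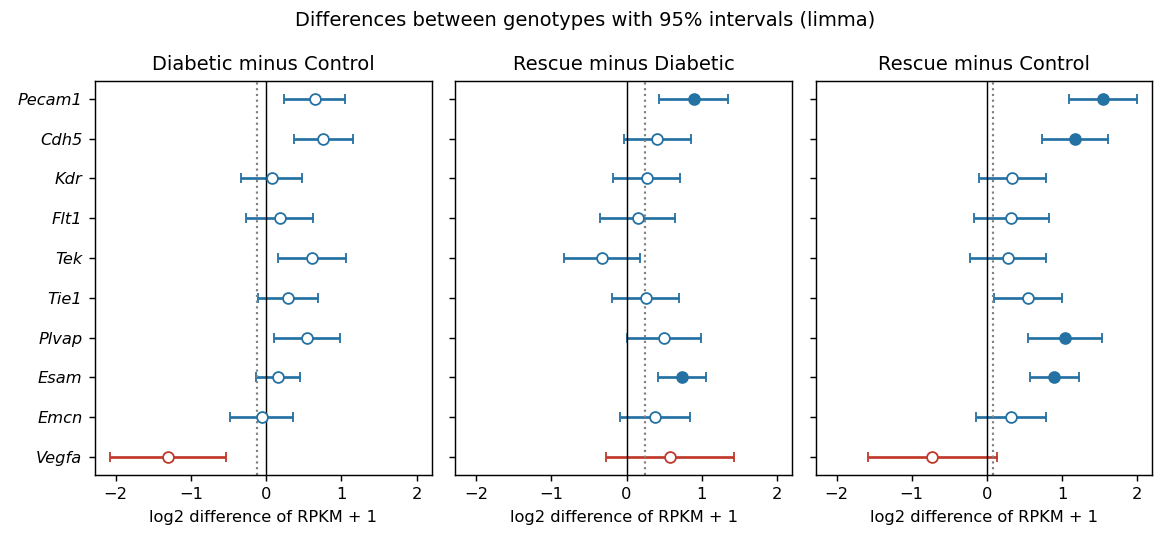
Differences on the log2(RPKM + 1) scale with 95% intervals for the 10 genes in the 3 comparisons, filled where the adjusted p of limma was under 0.05 and open otherwise, with the median of all genes as a dotted line (-0.12, 0.24 and 0.08). The filled points are *Pecam1* and *Esam* for Rescue minus Diabetic and *Pecam1*, *Cdh5*, *Plvap* and *Esam* for Rescue minus Control. *Vegfa* is the one gene with negative differences against Control in both Irs2-/- genotypes.

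The 9 endothelial genes summed to 156, 128 and 175 RPKM in Control, 165, 232 and 222 in Diabetic and 298 and 265 in Rescue, where Diabetic 1 fell among the Control values and both Rescue libraries lay above all others. *Plvap* made up 45.6 ± 1.22% of the sum in Control (SD, n = 3), 49.5 ± 1.29% in Diabetic (SD, n = 3) and 50.7 ± 2.99% in Rescue (SD, n = 2). *Kdr* was the second most abundant in every library except Rescue 1, where *Pecam1* was, and *Tek* was the lowest in all 8.

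Within a library the members did not keep fixed proportions. *Pecam1* was 0.43, 0.42 and 0.38 times *Kdr* in Control, 0.68, 0.82 and 0.46 times in Diabetic and 1.07 and 0.95 times in Rescue. This ratio, like that of *Tek* to *Tie1*, was separate in the 3 genotypes and was not tested. *Emcn* lay -0.17 ± 0.03 log2 units from the mean of the other 8 genes in Control (SD, n = 3), -0.64 ± 0.16 in Diabetic (SD, n = 3) and -0.62 ± 0.29 in Rescue (SD, n = 2), so it was lower relative to the rest in all 5 Irs2-/- libraries.

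**Figure D4:**
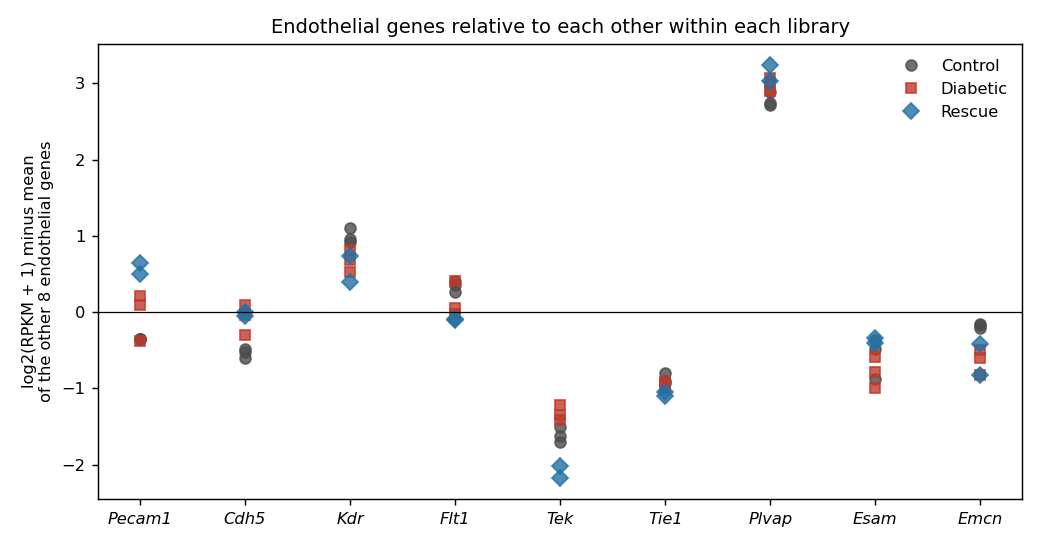
Level of each endothelial gene as log2(RPKM + 1) minus the mean of the other 8 in the same library, each point 1 library, by genotype. *Pecam1* runs from -0.38 to 0.65, with Rescue on top, *Tek* is lowest in Rescue (-2.18 and -2.02), and *Emcn* is highest in Control.

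The remaining endothelial genes were read from a further list of 19, of which 18 were tested (*Cldn5*, a tight junction gene, stayed at 3.03 RPKM or below). Of these 1 rose from Control to Diabetic, 6 from Diabetic to Rescue and 13 from Control to Rescue, and 0 fell. Their medians were 0.41, 0.50 and 0.94. Of all genes tested 1.53%, 24.0% and 18.0% rose in the same order, with medians of -0.12, 0.24 and 0.08. *S1pr1*, a sphingosine-1-phosphate receptor of endothelium and of lymphocytes, was 3.15, 3.88 and 3.60 RPKM in Control, 7.27, 7.78 and 5.22 in Diabetic and 20.0 and 24.6 in Rescue. The 3 genotypes were separate, and *S1pr1* differed by 0.76 (adjusted p = 0.0485), 1.60 (adjusted p = 0.00147) and 2.35 (adjusted p = 0.000331 in limma). *Vwf*, the von Willebrand factor of large vessels and veins, was at most 0.451 RPKM in Control and Diabetic and 2.25 and 3.09 in Rescue (1.77 above Control, adjusted p = 0.000548). *Vwf* passed the filter only through the Rescue libraries. *Ecscr* and *Icam2* rose as well, by 1.69 and 1.37 from Control to Rescue (adjusted p = 0.00146 and 0.00822). Without Rescue 1, 3 of the 18 were called between Rescue and Control and 1 between Rescue and Diabetic, and the call of *S1pr1* between Diabetic and Control was lost without any 1 of the 3 Control libraries, Diabetic 1 or Diabetic 2 (adjusted p = 0.0928 to 0.216).

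Of 12 tested transcription factor genes of endothelium, 0 passed between Diabetic and Control, 6 rose from Diabetic to Rescue and 6 from Control to Rescue. The rises stand beside 24.0% of all genes from Diabetic to Rescue and 18.0% from Control to Rescue. The largest rises were those of *Ets1*, *Lyl1*, *Klf2* and *Fli1*, which blood cells express too. *Lyl1* reached 1 RPKM outside Rescue only in Diabetic 1, so it passed the filter through its Rescue values. *Ets1* was 3.09, 2.68 and 3.33 RPKM in Control, 8.27, 6.33 and 3.67 in Diabetic and 28.4 and 31.0 in Rescue (2.93 above Control, adjusted p = 0.00037 in limma). *Erg*, an ETS factor that marks endothelium, was singled out after its values were seen. It was 3.15, 1.70 and 2.96 RPKM in Control, 1.92, 2.82 and 3.04 in Diabetic and 5.31 and 4.30 in Rescue, a difference of 0.71 from Control that did not pass (adjusted p = 0.0629).

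Lymphocyte genes moved with the Rescue genotype. All 8 of 8 listed lymphocyte genes rose from Control to Rescue and 6 of 8 from Diabetic to Rescue, beside 18.0% and 24.0% of all genes. Their medians were 4.14 and 3.04, beside 0.08 and 0.24 for all genes. *Cd3g* reached 1 RPKM only in Rescue and *Cd3e* only in Rescue and Diabetic 2, so both passed the filter through Rescue. *Ptprc* (CD45, on all white blood cells) was 0.224, 0.762 and 0.295 RPKM in Control, 5.22, 2.23 and 0.170 in Diabetic and 21.4 and 23.8 in Rescue. The mean centred log2 level of the 8 genes was -1.83, -0.81 and -1.80 in Control, 0.91, -0.14 and -1.80 in Diabetic and 2.86 and 2.59 in Rescue. *Pecam1* was lowest among the Diabetic libraries in Diabetic 3, where the lymphocyte genes were lowest, and highest in Diabetic 2, where they were not the highest. The same mean for 7 tested macrophage genes was -0.10, 0.23 and -0.91 in Diabetic 1 to 3, the same order as *Pecam1*. The part of blood cells in the values of *Pecam1*, *S1pr1*, *Ets1* and *Fli1* was not tested.

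Genes of venous and high endothelial venules, the vessels through which lymphocytes enter tissue, were low in Control. Of 11 listed genes 6 were tested. From Control to Rescue 6 of 6 rose and from Diabetic to Rescue 4 of 6, beside 18.0% and 24.0% of all genes. Between Diabetic and Control 0 were called. *Vwf* and *Ackr1* reached 1 RPKM only in Rescue, and *Glycam1* and *Nr2f2* only in Rescue and Diabetic 1. The filter kept these genes through their Rescue values, so their rise was partly fixed by it. *Vcam1*, an adhesion molecule for white blood cells, was 0.0896, 0.362 and 0.230 RPKM in Control, 1.67, 2.97 and 0.149 in Diabetic and 12.2 and 11.5 in Rescue (3.40 above Control, adjusted p = 0.000908 in limma). *Glycam1*, a sialomucin of high endothelial venules in lymph nodes, was listed at 0, 0.125 and 0 RPKM in Control, 48.8, 0.446 and 0 in Diabetic and 23.8 and 116 in Rescue. Diabetic 1 and both Rescue libraries thus held this RNA in quantity, and Diabetic 1, with the most *Glycam1* of its group, also had the most lymphocyte RNA of its group. *Ackr1*, the atypical chemokine receptor of venules, rose by 1.53 from Control to Rescue (adjusted p = 0.00134).

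Arterial genes were fewer. Of 5 tested, 1 rose from Control to Diabetic, 1 from Diabetic to Rescue and 4 from Control to Rescue. Of all genes tested 1.53%, 24.0% and 18.0% rose in the same order, so the share from Diabetic to Rescue was no higher than that of all genes. *Sema3g*, a semaphorin of arterial endothelium, was 2.06, 1.17 and 1.53 RPKM in Control, 3.32, 6.02 and 4.26 in Diabetic and 3.84 and 2.85 in Rescue. All Diabetic libraries were above all Control libraries (1.08, SE 0.22, adjusted p = 0.037 in limma), and Rescue minus Diabetic was -0.33 (adjusted p = 0.325). The call of *Sema3g* was lost without any 1 of the 3 Control libraries or Diabetic 2 (adjusted p = 0.0759 to 0.151). *Gja4*, a connexin of arteries, rose by 1.09 from Control to Rescue (adjusted p = 0.0236).

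Lymphatic genes did not move together. Of 5 tested, 2 rose (*Pdpn* and *Reln*) and 1 fell (*Prox1*) in Rescue against either other genotype. Of all genes tested, 24.0% rose and 5.80% fell from Diabetic to Rescue, and 18.0% rose and 5.48% fell from Control to Rescue. *Pdpn* and *Reln* reached 1 RPKM only in Rescue and passed the filter through it. The rise of these genes was thus partly fixed by the filter. *Prox1*, the defining factor of lymphatic endothelium, is also expressed by endocrine cells of the islet, and was 9.06, 9.86 and 10.9 RPKM in Control, 8.66, 8.75 and 7.68 in Diabetic and 2.63 and 6.17 in Rescue. *Prox1* fell by 1.10 from Control to Rescue (adjusted p = 0.0162 in limma). *Pdpn*, which fibroblasts of lymphoid tissue carry too, was at most 0.512 RPKM outside Rescue and 4.05 and 3.90 within it.

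Among the other VEGF ligands, *Vegfb* behaved unlike *Vegfa* in its precision. *Vegfb*, a ligand of VEGFR1, was 19.6, 18.5 and 18.9 RPKM in Control, 9.47, 9.79 and 12.6 in Diabetic and 19.6 and 15.4 in Rescue. The Diabetic libraries lay below all others, and Control and Rescue overlapped. *Vegfb* fell by 0.79 from Control to Diabetic (SE 0.15, adjusted p = 0.0296 in limma) and rose by 0.67 from Diabetic to Rescue (SE 0.17, adjusted p = 0.0183), with -0.12 between Rescue and Control (adjusted p = 0.638). The first call was lost with median-of-ratios scaling (-0.66, adjusted p = 0.0885) and without any 1 of the Control libraries, Diabetic 1 or Diabetic 2 (adjusted p = 0.0702 to 0.148), and the second with median-of-ratios scaling (0.42, adjusted p = 0.163) and without Diabetic 2 or Rescue 1. *Vegfc*, the lymphatic ligand, and *Pgf*, the placental growth factor, did not pass in any comparison, and *Vegfd* was too low to be tested.

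The co-receptors split. *Nrp1*, which binds VEGF-A with VEGFR2, was 10.3, 8.22 and 10.9 RPKM in Control, 5.65, 7.88 and 11.6 in Diabetic and 12.9 and 13.4 in Rescue and did not pass the test in limma in any comparison (adjusted p = 0.0852 to 0.516). *Nrp2*, the neuropilin of veins and lymphatics, was at most 1.42 RPKM outside Rescue and 2.34 and 2.87 in Rescue, 0.91 above Diabetic (adjusted p = 0.0163) and above Control as well (adjusted p = 0.0113). Outside Rescue only Diabetic 1 reached 1 RPKM of *Nrp2*, so this gene passed the filter through its Rescue values. Of the angiopoietins, *Angpt1*, the agonist of TIE2, was at most 0.271 RPKM in any library and was not tested. *Angpt2*, the context-dependent ligand that tip cells release, was singled out after its values were seen. It was 2.31, 2.36 and 2.80 RPKM in Control, 7.14, 5.69 and 3.76 in Diabetic and 2.53 and 4.51 in Rescue, a difference of 0.87 between Diabetic and Control that did not pass (SE 0.24, adjusted p = 0.0802). *Angptl4* and *Angptl2*, angiopoietin-like genes, rose by 1.52 and 1.21 from Control to Rescue (adjusted p = 0.000897 and 0.000838).

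Genes of sprouting vessels and of Notch signalling, through which tip and stalk cells are chosen, were higher in Rescue only in part. Of 9 tip cell genes 5 rose from Diabetic to Rescue and 5 from Control to Rescue, with 0 between Diabetic and Control. *Cxcr4*, a chemokine receptor that lymphocytes also carry, had the largest rise (3.79 from Control, adjusted p = 0.000492 in limma). *Apln*, the apelin ligand of tip cells, was at most 1.13 RPKM outside Rescue and 2.62 and 1.65 in Rescue, and *Mcam* rose by 0.90 from Control (adjusted p = 0.00566). Of 12 Notch genes 2 rose from Diabetic to Rescue, a share no higher than the 24.0% of all genes, and 6 from Control to Rescue, beside 18.0% of all genes. *Dll4*, the VEGF-induced Notch ligand of tip cells and arteries, was 4.35, 3.58 and 3.01 RPKM in Control, 4.64, 3.47 and 2.49 in Diabetic and 7.61 and 8.04 in Rescue. Control and Diabetic overlapped for *Dll4*, and Rescue was 0.99 above Diabetic (adjusted p = 0.0128) and 0.94 above Control (adjusted p = 0.0167).

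Angiogenesis inhibitors and genes of the vessel wall were counted next, beside 24.0% of all genes higher from Diabetic to Rescue and 18.0% from Control to Rescue. From Control to Diabetic 1.53% of all genes were higher. Of 9 tested inhibitors 4 rose from Diabetic to Rescue and 7 from Control to Rescue, among them *Thbs2* (thrombospondin 2, 1.22 above Control, adjusted p = 0.000864 in limma) and *Col18a1*, whose fragment is endostatin (1.16, adjusted p = 0.00335). *Vash1*, an inhibitor singled out after its values were seen, was lower without overlap in Diabetic and in Rescue than in Control, and did not pass (adjusted p = 0.117 and 0.158). Of 11 basement membrane genes 2 rose from Diabetic to Rescue, a share no higher than that of all genes, and 6 from Control to Rescue, with the largest rise for *Sparc* (1.34, adjusted p = 0.00798). Of 10 tested genes of pericytes and smooth muscle 1 rose from Control to Diabetic, 4 from Diabetic to Rescue and 7 from Control to Rescue. *Abcc9*, the channel subunit of pericytes, was 1.08, 0.702 and 1.14 RPKM in Control, 4.01, 2.70 and 2.20 in Diabetic and 5.17 and 5.50 in Rescue, with the 3 genotypes separate. *Abcc9* differed by 0.99 between Diabetic and Control (adjusted p = 0.0325) and by 0.70 between Rescue and Diabetic (adjusted p = 0.0403), and the first call was lost without any 1 of the Control libraries, Diabetic 1 or Diabetic 2 (adjusted p = 0.0594 to 0.142), the second without any 1 library except Diabetic 1. The second was also lost with either other pseudocount, with no filter, with median-of-ratios scaling (0.49, adjusted p = 0.0700), with quantile normalization (0.34, adjusted p = 0.153), in a fit of the 2 groups and with the covariate, and the first with no filter (adjusted p = 0.0627). All 7 of 7 tested fibroblast genes rose from Control to Rescue, with a median of 2.29, against 0.54 for the 9 endothelial genes.

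The response to low oxygen, which induces *Vegfa* in many cells through HIF, was read from 15 tested HIF target genes other than *Vegfa*. Of these 1 rose from Control to Diabetic (*Ldha*), 5 rose and 1 fell from Diabetic to Rescue and 5 rose and 1 fell from Control to Rescue, with medians of -0.04, 0.43 and 0.19. From Control to Diabetic the count stands beside 1.53% of all genes higher. From Diabetic to Rescue these counts stand beside 24.0% of all genes higher and 5.80% lower, and from Control to Rescue beside 18.0% and 5.48%. *Ldha*, lactate dehydrogenase A, which mature β cells hold very low, was 2.16, 2.41 and 2.33 RPKM in Control, 6.72, 8.06 and 3.60 in Diabetic and 38.0 and 33.9 in Rescue. *Pfkfb3* and *Hk2*, glycolytic genes, rose by 1.74 and 1.35 from Control to Rescue (adjusted p = 0.00446 and 0.000864 in limma), and *Bnip3*, a mitophagy receptor, fell by 1.15 (adjusted p = 0.00715). Of 8 genes of the HIF machinery 1 passed in any comparison, *Egln3*, a HIF prolyl hydroxylase (0.96 from Control to Rescue, adjusted p = 0.0276). Outside Rescue only Diabetic 1 reached 1 RPKM of *Egln3*, so it passed the filter through its Rescue values.

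β cells are the main source of VEGF-A in the islet. Of 10 β cell genes 2 fell from Control to Diabetic, the glucose transporter *Slc2a2* (by 2.12, adjusted p = 0.0193 in limma) and the peptide *Ucn3* (by 1.36, adjusted p = 0.0452). From Control to Rescue 3 fell, *Slc2a2* (by 2.11, adjusted p = 0.0042), *G6pc2* (by 1.62, adjusted p = 0.0062) and *Slc30a8*, the zinc transporter of insulin granules (by 1.23, adjusted p = 0.0447). From Diabetic to Rescue 1 fell, *Iapp*, the amyloid polypeptide released with insulin (by 1.31, adjusted p = 0.00994), and Diabetic minus Control for *Iapp* was 0.83 (adjusted p = 0.0991). These counts stand beside 2.44%, 5.48% and 5.80% of all genes that fell, in the same order. The insulin genes *Ins1* and *Ins2* did not pass in any comparison. *Slc2a2* was 108, 164 and 221 RPKM in Control, 30.9, 40.6 and 35.4 in Diabetic and 23.3 and 54.5 in Rescue, which separates Control from both Irs2-/- genotypes as *Vegfa* did only for Diabetic.

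**Figure D5:**
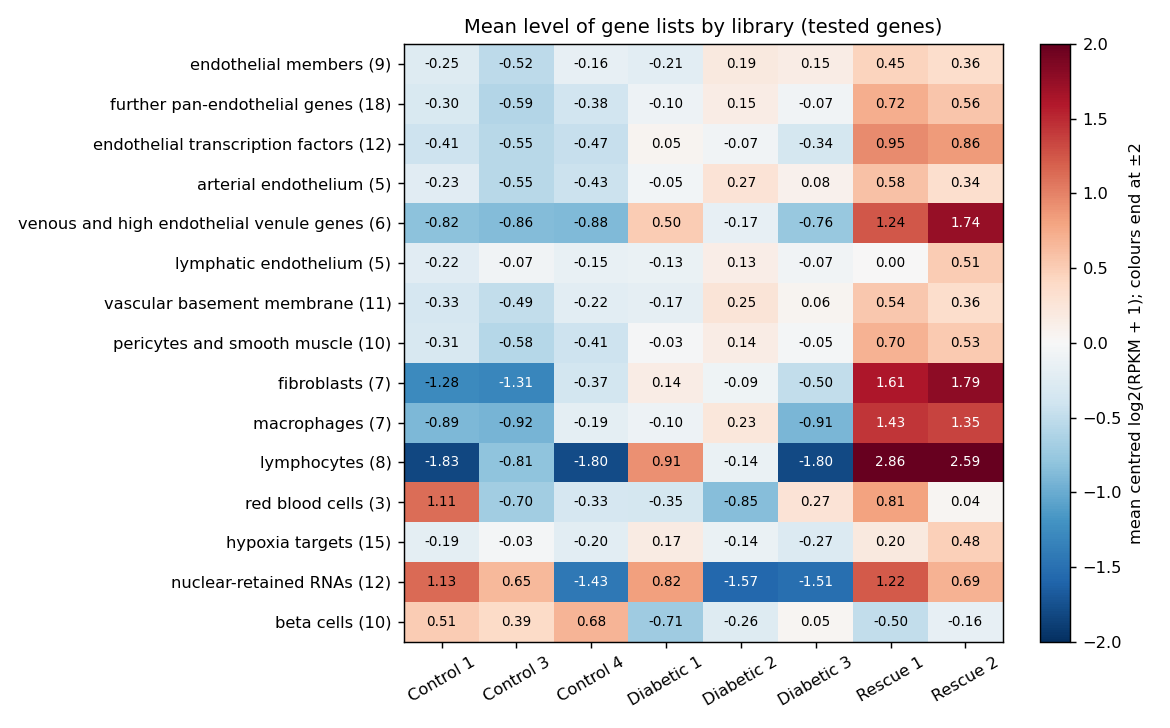
Mean level of gene lists by library, as log2(RPKM + 1) of each tested gene centred on its mean over the 8 libraries (number of genes in brackets). Endothelial genes run from -0.52 to 0.45 and lymphocyte genes from -1.83 to 2.86, both highest in Rescue, whereas the nuclear-retained RNAs separate Control 4, Diabetic 2 and Diabetic 3 from the other 5 libraries.

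The genes whose pattern over the 8 libraries was most like that of *Vegfa*, by Pearson correlation of log2(RPKM + 1) among 6843 genes with a mean of at least 5 RPKM, were *Trim41*, *Sepsecs* and *Cryzl1* (0.99 each) and *Inpp4a* and *Kdm4a* (0.98 each). *Sepsecs* was 19.3, 17.9 and 14.5 RPKM in Control, 12.5, 6.90 and 8.35 in Diabetic and 9.60 and 15.5 in Rescue, with the same order of libraries within each genotype as *Vegfa*. The most opposite were *Ctsd* (-0.91), *Prdx4* (-0.87), *Rgs5* (-0.85), *Ormdl2* (-0.84) and *Calr* (-0.84), of which *Rgs5* is a pericyte gene and *Calr* and *Prdx4* encode proteins of the endoplasmic reticulum. Most like the mean of the 9 endothelial genes were *Cavin1* and *Mmrn2* (0.98 each), *Nid1* and *Sparc* (0.97 each) and *Cav1* (0.96). *Mmrn2*, an extracellular matrix protein of endothelium, was 5.49, 4.84 and 7.09 RPKM in Control, 6.73, 9.14 and 9.03 in Diabetic and 12.1 and 12.0 in Rescue. The libraries share their genotypes and the nuclear-retained RNAs, so these correlations describe the patterns and were not tested.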

How the data were processed

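RNA of whole islets was sequenced as paired ends on an Illumina HiSeq. Per the labels and the study's methods, the authors aligned reads to mm10 with STAR, counted them with HTSeq and used edgeR; the sources used here give no versions. The deposited values were RPKM per gene for 8 libraries, made by the authors. Whole reads were recovered from the RPKM steps (18126 of 18126 genes above 0 within 0.001 reads), which gave the depth of 10289662 to 14315976 reads in genes.

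log2(RPKM + 1) of the 12594 genes that reached 1 RPKM in 2 or more libraries was fitted with limma 3.58.1 (R 4.3.3) with 1 mean per genotype, all 8 libraries in 1 model and a trended empirical Bayes variance. P-values were two-sided and adjusted by the Benjamini-Hochberg method over all genes tested, with calls under 0.05. A difference on this scale understates the change of genes with low values. The filter could be met by the Rescue libraries alone. Among the genes named or counted, *Vwf*, *Ackr1*, *Pdpn*, *Reln*, *Angptl4*, *Thbs2*, *Hk2*, *Cd3g* and *Pdgfra* reached 1 RPKM only in Rescue. *Nrp2*, *Apln*, *Lyl1*, *Egln3*, *Cd3e*, *Serpinf1*, *Tspan18*, *Glycam1* and *Nr2f2* reached it in Rescue and in only 1 other library. These genes also needed their Rescue values to pass the filter. The place of both sets among the genes higher in Rescue was thus partly fixed by the filter. The 3 comparisons share libraries.

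The genes named were the 10 members, in each list up to 4 called genes with the largest differences, and the 5 genes nearest to or farthest from *Vegfa* and nearest to the endothelial mean. Others were named with their values known. The members, lists and ratios were chosen with earlier results of these data known. Alternatives were the pseudocount (0.1 and 0.5), the filter, 2 other scalings, fits of 2 groups, a replicate block, a covariate of nuclear-retained RNAs, voom and leaving out each library. Promoter sequences were from RefSeq (GRCm38.p6), gene positions from GENCODE M21, and figures were drawn with matplotlib 3.10.9. Intervals of the fits reflect the spread between libraries.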

Additional observations from a re-analysis of the deposited data

How the results depend on the processing

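Over 54 repeats, the *Vegfa* differences kept direction and side of the test in 50, passed it in 3 more and turned in 1. With median-of-ratios scaling, Diabetic minus Control was -1.16 (adjusted p = 0.0496), past the threshold, and leaving out 1 library gave -1.64 to -1.10. With the covariate of nuclear-retained RNAs, Rescue minus Control passed at -1.01 and Rescue minus Diabetic turned to -0.0015. The number of endothelial members called between Diabetic and Control was 1 (*Cdh5*) with a pseudocount of 0.5 or a filter on a mean of at least 5 RPKM (which leaves out *Tek*), and 0 to 1 with 1 library left out (1 without Rescue 1 or Rescue 2). Between Rescue and Diabetic it was 0 with median-of-ratios scaling, 3 with the covariate (*Plvap* added) and 1 to 2 with 1 library left out, and between Rescue and Control 3 with median-of-ratios scaling (without *Plvap*) and 5 with the covariate (*Tie1* added). Of the 18 further endothelial genes, 0 were called between Diabetic and Control with no filter, the covariate, voom or the replicate block and 0 to 1 with 1 library left out. Between Rescue and Diabetic 3 were called with no filter or quantile normalization, 1 with the filter on the mean, and 1 to 5 with 1 library left out (3 without Diabetic 3, 1 without Rescue 1). Between Rescue and Control 7 were called with that filter and 3 to 15 with 1 library left out (8 without Control 3, 3 without Rescue 1). The cause of these moves was not tested, apart from the fewer genes that the filter on the mean leaves.

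Directions that turned all belonged to differences that did not pass. *Emcn* between Diabetic and Control was 0.0745 with median-of-ratios scaling and 0.0685 with quantile normalization, and -0.17 to 0.0509 with 1 library left out. *Flt1* between Rescue and Diabetic was -0.11 and -0.0188 under these scalings, and -0.0559 to 0.31 with 1 library left out. *Kdr* between Diabetic and Control was -0.0634 with the covariate and -0.0509 to 0.20 with 1 library left out. *Tie1* between Rescue and Diabetic was -0.0075 with quantile normalization. *Vegfb* between Rescue and Control was -0.28 to 0.0421 with 1 library left out. Median-of-ratios scaling split all genes called between Rescue and Diabetic into 2005 higher and 1721 lower, quantile normalization into 1805 and 2365, against 3022 and 730. For Rescue minus Control these scalings gave 1986 and 1303, and 1804 and 2483, against 2268 and 690. For Diabetic minus Control they gave 394 and 189, and 308 and 190, against 193 and 307. All genes called between Diabetic and Control ranged from 10 higher and 8 lower without Diabetic 2 to 656 and 375 without Diabetic 3. A count model was not run because the deposited unit is RPKM, and voom on recovered reads, chosen after seeing the data, was run in its place. It called 2 members between Rescue and Diabetic and 4 between Rescue and Control.

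The deviations of same-numbered libraries correlated at -0.26 to 0.37, positive for some pairs and not for others, so a pairing by number was not shown. With a replicate block, 2 members (*Pecam1* and *Cdh5*) and 4 further endothelial genes were called between Rescue and Control, all genes called between Diabetic and Control were 27 higher and 22 lower, *Emcn* between Diabetic and Control was 0.10, and *Vegfb* between Rescue and Control was 0.0285.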

Other observations

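White blood cells other than lymphocytes were also uneven between the genotypes. Of 7 tested macrophage genes 0 passed between Diabetic and Control in limma, 5 rose from Diabetic to Rescue and 6 from Control to Rescue. The rises stand beside 24.0% of all genes from Diabetic to Rescue and 18.0% from Control to Rescue. *Lyz2*, the lysozyme of macrophages and other myeloid cells, was 5.33, 7.98 and 18.6 RPKM in Control, 49.1, 94.8 and 4.86 in Diabetic and 468 and 394 in Rescue, whereas *Cd68* was at most 4.66 RPKM outside Rescue and 19.5 and 15.3 within it. *C1qa* was 33.0, 46.3 and 57.7 RPKM in Control, 104, 117 and 68.2 in Diabetic and 94.8 and 85.2 in Rescue. *C1qa* did not differ by the test between Rescue and Diabetic (-0.06, adjusted p = 0.877 in limma). *Adgre1* passed in no comparison. Haemoglobin genes, which would come with red cells held in vessels, did not pass in any comparison. *Hba-a1* was 4.58 to 18.7 RPKM over all 8 libraries, highest in Control 1. Of 9 tested acinar genes none passed in any comparison.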
